A study of Mus musculus with 80 samples.

Results

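The 32 genes described here encode enzymes, transporters and kinases of glucose breakdown: glycolysis, the fate of pyruvate, and the pentose phosphate pathway. They were chosen by name from the pathway, and all 32 matched 1 of the 27128 gene rows in both tables of the study. Pkm appears under its older symbol Pkm2, and that row does not separate the splice forms PKM1 and PKM2. The isoenzymes that complete each step, with pyruvate carriers and hypoxia regulators, form a further list of 42 genes, all of which matched a row, 6 of them under an older symbol.

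The study measured RNA of germ cells from testes of male mice at postnatal day 5.5. The mice were of strain B6;CBA-Tg(Pou5f1-EGFP)2Mnn/J, in which Pou5f1 (Oct4) regulatory sequence drives green fluorescent protein, and cells were sorted on that fluorescence, so control and comparison groups share the transgene. KIT negative cells, 71 in number, were isolated one by one with a Fluidigm C1 instrument. Sorted CD87 negative and CD87 positive cells gave 2 bulk libraries each by the Smart-seq2 method, and the other 5 libraries of the series were not analysed here. The surface protein CD87 is the product of Plaur and binds urokinase.

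Glycolysis splits glucose into pyruvate. Glucose enters through SLC2A transporters, hexokinase traps it, and phosphofructokinase commits it to the pathway. Pyruvate is reduced to lactate by lactate dehydrogenase and exported by SLC16A transporters, or it enters mitochondria and is oxidised by the pyruvate dehydrogenase (PDH) complex, which PDH kinases switch off by phosphorylation. The pentose phosphate pathway takes glucose-6-phosphate aside to make NADPH and ribose. Most steps have several isoenzyme genes that differ in tissue, and the testis has its own set, some of which are intronless copies of a gene on the X chromosome. Spermatogonial stem cells in culture are known to rely on glycolysis.

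Several of these genes have near-identical copies in the mouse genome, and this bears on how their values can be read. The longest coding transcript of each gene was aligned to all GENCODE vM21 transcripts, and copies with at least 95% identity over at least 300 bases were counted. Gapdh had 77 such copies, 63 of them with a row in the tables. The copy with the highest level was the processed pseudogene Gm12033 at chr11:20335012-20336013 (GRCm38), which matched the Gapdh transcript (gene at chr6:125161715-125166467) with 1 mismatch in 1002 bases. A stretch of 60 bases around that mismatch, within the coding part of Gapdh, is shown because it is the only place in the alignment where the sequences differ, with the differing base in capitals.
Gapdh: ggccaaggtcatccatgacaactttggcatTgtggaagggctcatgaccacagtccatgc
Gm12033: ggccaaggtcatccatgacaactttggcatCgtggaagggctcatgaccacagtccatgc
Counted from the first printed base, the difference is T31C. The TPM values (a level scaled by transcript length and by the library's total) of Gm12033 were 98.1 and 83.4 in the CD87 negative and 78.3 and 65.5 in the CD87 positive libraries. The 63 copies together held 10.8% to 19.2% of the summed TPM of Gapdh and its copies. Eno1 had a protein-coding copy, Eno1b, with 99.5% identity over 1736 bases and TPM values of 63.1, 83.3, 72.2 and 109 in the same order of libraries. Copies of Eno1 held 30.3% to 35.8% of the Eno1 total. The values of Gapdh and Eno1 are therefore uncertain as to which locus they come from, since how reads shared between copies were divided is not given in the sources used here. Gpi1 had 1 copy at 3.09 to 7.95 TPM. The copies of Ldha, Ldhb, Pdhb, Pgk1 and Pkm2 that had a row reached at most 2.10 TPM together per gene. Not every copy had a row. Pgk1 had 4 copies, 1 of them with a row, and Tpi1 and Pgam1 had 1 copy each, without a row. The level of copies without a row cannot be seen, so the values of these genes carry a like uncertainty.

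The TPM columns summed to between 580440 and 635203, and a single row held 23.9% to 31.2% of each. Sequencing depth cannot be read from TPM and is unknown for these libraries. CD87 positive library 2 stood apart by its detection, with 12063 genes above 0, against 15147 to 16267 in the other 3 libraries. Plaur read 0.46 and 0.97 TPM in the negative and 3.53 and 8.92 TPM in the positive libraries, the order the sort calls for. The germ cell markers Ddx4, Dazl, Sall4 and Zbtb16 summed to 438 and 506 TPM in the negative and 512 and 556 TPM in the positive libraries. Markers of other cells also moved with the sort. The 12 macrophage markers summed to 10.8 and 7.23 TPM against 181 and 153 TPM, all 12 were higher on average in the positive libraries, and 8 of them (Lyz2, Tyrobp, C1qa, C1qb, C1qc, Ctss, Laptm5 and Adgre1) were at 0 in both negative libraries. The 9 Sertoli cell markers summed to 91.4 and 188 TPM against 86.5 and 27 TPM. What part RNA of such cells has in the values below was not tested, and in bulk libraries fewer cells of a type and less RNA per cell cannot be told apart. The single cells held between 182163 and 6802787 expected counts, with a median of 1585930. The 4 germ cell markers were detected in every cell. Of the 12 macrophage markers, C1qa, C1qb, C1qc, Ctss and Adgre1 were found in no cell, Lyz2, Tyrobp and Laptm5 in 1 each, Ptprc in 6, Csf1r in 16, Cd68 in 17 and Fcer1g in 24. Of the 9 Sertoli cell markers, Amh, Fshr and Cst12 were found in no cell, and Sox9 was found in 65, Gata4 in 23, Wt1 in 11, Clu in 5 and Inha and Aard in 2 each.

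In the bulk libraries the pathway was carried by a few highly expressed genes. Gapdh, glyceraldehyde-3-phosphate dehydrogenase, led with 541 and 896 TPM in the negative and 792 and 815 TPM in the positive libraries. Then came Pkm2 (pyruvate kinase), Gpi1 (glucose-6-phosphate isomerase), Aldoa (aldolase), Pgam1 (phosphoglycerate mutase), Eno1 (enolase) and Taldo1 (transaldolase), with means over the 4 libraries from 225 down to 152 TPM. These 7 genes made up 80.1% to 83.0% of the summed TPM of all 32. That sum was 1764 and 2444 TPM in the negative and 2300 and 2658 TPM in the positive libraries, so the groups overlapped. Gapdh lay above all others in every library, and the ranges of neighbours further down this order overlapped.

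**Figure D1:**
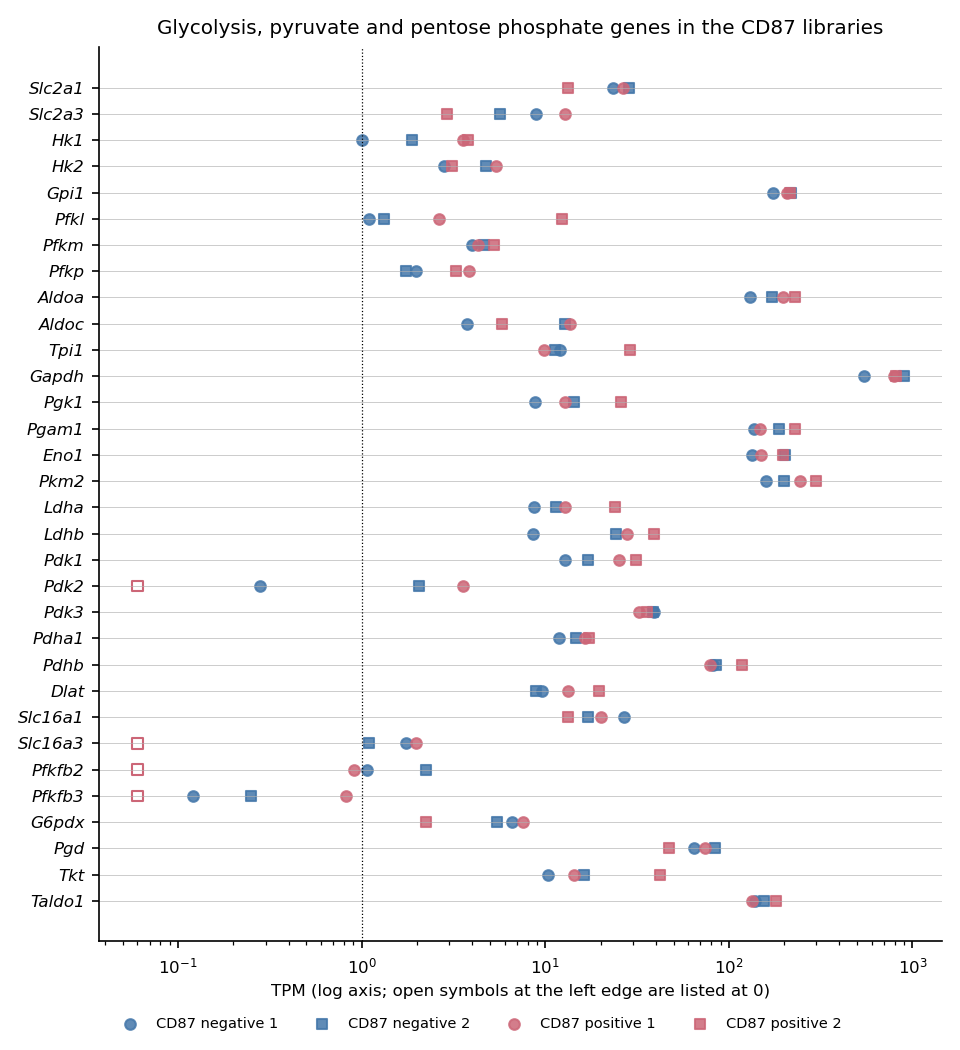
TPM of the 32 genes in the 4 CD87 libraries on a log axis, in pathway order from glucose uptake to the pentose phosphate genes. Colour gives the group and shape the library number, and open symbols at the left edge are listed at 0. Gapdh lies above 500 TPM in every library, and the 4 open symbols belong to CD87 positive library 2.

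At uptake and the first phosphorylation, levels were low and the libraries disagreed within groups. Slc2a1, the widespread glucose transporter GLUT1, read 23.3 and 28.4 TPM in the negative and 26.5 and 13.3 TPM in the positive libraries. Slc2a3, the high-affinity transporter GLUT3, read 8.85 and 5.64 TPM against 12.7 and 2.91 TPM. For both transporters CD87 positive library 2 was the lowest of the 4 and the groups overlapped. Hk1, the hexokinase of most adult tissues, read 1.00 and 1.88 TPM against 3.55 and 3.80 TPM, both positive libraries above both negative ones. Hk2, the growth- and insulin-linked hexokinase, read 2.80 and 4.77 TPM against 5.39 and 3.11 TPM, with overlap.

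Phosphofructokinase held the member with the widest log2 difference of those tested. Pfkl, the liver-type subunit, read 1.10 and 1.33 TPM in the negative and 2.62 and 12.3 TPM in the positive libraries. Both positive values were higher, and the gap between them exceeded the gap between the group means. Pfkp, the platelet-type subunit, read 1.98 and 1.75 TPM against 3.86 and 3.26 TPM without overlap, and Pfkm, the muscle-type subunit, stayed between 3.99 and 5.27 TPM in all 4. The bifunctional enzymes that set fructose-2,6-bisphosphate, the activator of phosphofructokinase, were near the limit of measurement. Pfkfb2 read 1.07 and 2.24 TPM against 0.91 and 0 TPM, and Pfkfb3 was below 1 TPM in every library and was the only one of the 32 that the filter left untested.

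From aldolase to pyruvate kinase, Tpi1 and Pgk1 sat well below their neighbours Aldoa, Gapdh and Pgam1 on the same TPM scale. Tpi1, triose phosphate isomerase, read 12.0 and 11.3 TPM against 9.83 and 28.9 TPM, and Pgk1, phosphoglycerate kinase, 8.78 and 14.3 TPM against 12.8 and 25.8 TPM. In both genes CD87 positive library 2 alone lay above the other 3. Aldoa read 131 and 171 TPM against 198 and 230 TPM, with both positive libraries higher. Aldoc, the brain-type aldolase, was between 3.73 and 13.6 TPM with overlap. Pkm2 read 160 and 200 TPM in the negative and 245 and 297 TPM in the positive libraries, again without overlap.

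At the pyruvate branch the groups were apart for both lactate dehydrogenase genes and for 2 PDH kinases. Over all genes tested, 20.4% had both positive libraries above both negative ones and 14.5% had them below. Ldha, the lactate dehydrogenase subunit of glycolytic muscle, read 8.69 and 11.4 TPM in the negative and 12.8 and 24 TPM in the positive libraries. Ldhb, the heart-type subunit, read 8.60 and 24.3 TPM against 27.8 and 39.1 TPM. In both genes the positive libraries lay above the negative ones, by a narrow margin between negative library 2 and positive library 1. Pdk1, a PDH kinase and a known target of hypoxia signalling, read 12.8 and 17.2 TPM against 25.1 and 31.1 TPM. Pdk3, another PDH kinase, read 39.2 and 38.7 TPM against 32.4 and 35.6 TPM. The groups were apart for both kinases, Pdk1 with the positive libraries higher and Pdk3 with them lower. Pdk2 ranged from 0 to 3.57 TPM.

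The PDH complex itself was led by Pdhb, its E1 beta subunit, at 81.4 and 85.1 TPM in the negative and 78.8 and 118 TPM in the positive libraries. Pdha1, the X-linked E1 alpha subunit, read 11.8 and 14.7 TPM against 16.4 and 17.2 TPM. Dlat, the E2 core enzyme, read 9.63 and 8.95 TPM against 13.2 and 19.6 TPM. Pdha1 and Dlat were higher in both positive libraries, while Pdhb overlapped. The lactate and pyruvate exporter Slc16a1 (MCT1) read 26.8 and 17.1 TPM against 20.0 and 13.3 TPM, and Slc16a3 (MCT4), which exports lactate from glycolytic cells, was between 0 and 1.98 TPM.

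Among pentose phosphate genes, the sugar-rearranging and the oxidative enzymes did not follow each other. Tkt, transketolase, read 10.3 and 16.3 TPM in the negative and 14.4 and 42.3 TPM in the positive libraries. G6pdx, the enzyme that opens the oxidative branch, read 6.62 and 5.42 TPM against 7.59 and 2.25 TPM. Pgd, the next NADPH-producing enzyme, read 64.5 and 84.3 TPM against 74.2 and 47.1 TPM. In all 3 genes CD87 positive library 2 was the extreme value, highest for Tkt and lowest for G6pdx and Pgd, and the groups overlapped. Taldo1 read 138 and 155 TPM against 133 and 181 TPM.

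None of these differences passed the test across all genes. With limma on log2(TPM + 1), 3 of 12715 genes tested (0.0236%) had a Benjamini-Hochberg adjusted p under 0.05, and 0 of the 31 tested members did, with adjusted p from 0.863 to 0.991. At an unadjusted p under 0.05, 3 members were higher in the CD87 positive libraries, where 3.37% of all genes were, and 0 were lower, where 1.58% of all genes were. These were Pdk1 (log2 difference 0.87 ± 0.36 SE, unadjusted limma p = 0.0377), Pkm2 (0.59 ± 0.25, p = 0.0467) and Ldhb (1.12 ± 0.48, p = 0.0471). The ratio of group means in TPM was 1.88 for Pdk1, 1.51 for Pkm2 and 2.03 for Ldhb. The log2 differences of the members ran from -0.91 ± 0.75 for Pfkfb2 to 1.65 ± 0.74 for Pfkl. With 2 libraries a group, and no label saying that they came from separate animals, these p-values reflect only how far these libraries scatter, and that scatter may be technical.

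Counted by direction, 23 of the 31 were higher and 8 lower, with a median log2 difference of 0.21, where 51% of all genes tested were higher and their median was 0.01. Both positive libraries lay above both negative ones for 10 members, which are Hk1, Pfkl, Pfkp, Aldoa, Pkm2, Ldha, Ldhb, Pdk1, Pdha1 and Dlat, against 20.4% of all genes. They lay below for 2, Pdk3 and Pfkfb2, against 14.5%. Libraries of the same group were also ordered. CD87 negative library 2 exceeded negative library 1 in 24 of the 32 genes, where 58.3% of all genes tested did so, and positive library 2 exceeded positive library 1 in 20, where 43.5% did. Positive libraries 1 and 2 exceeded negative library 1 in 26 and 22 of the 32, against 62.9% and 49.7% of all genes. They exceeded negative library 2 in 18 and 17, against 52.5% and 45.4%. The number of calls turned on 1 library. Without CD87 positive library 1, 2988 of 11857 genes (25.2%) were called, the lone positive library being assumed to vary like the negative ones, and 9.86% were called higher. In that fit 7 of 30 members were called, all higher: Tkt, Ldha, Ldhb, Pgk1, Pdk1, Tpi1 and Pfkl.

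**Figure D2:**
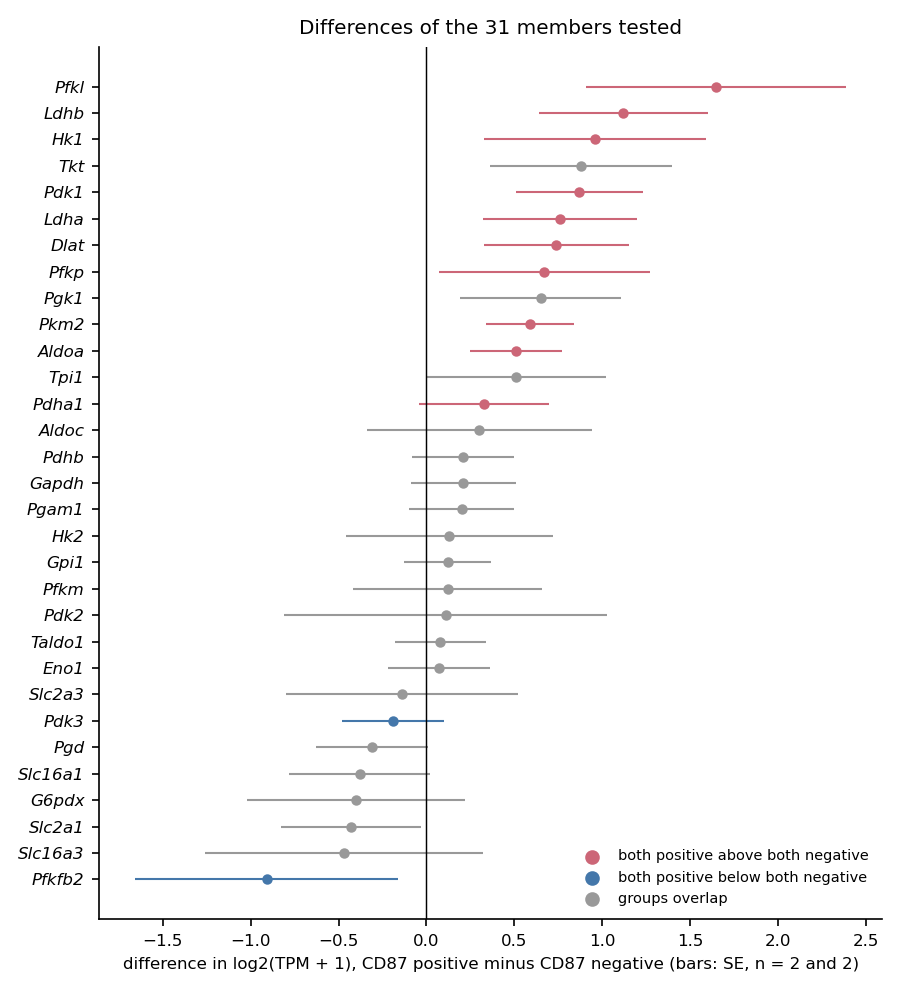
Difference in log2(TPM + 1) between CD87 positive and CD87 negative libraries for the 31 members tested, with the standard error (SE) from limma (n = 2 and 2). Red points have both positive libraries above both negative ones (10 genes), blue points below (2 genes), and grey points overlap. The points run from -0.91 for Pfkfb2 to 1.65 for Pfkl.

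The isoenzyme that carried a step was then read as its share of the summed TPM of that step's genes within a library, a value that does not depend on the column total. At most steps 1 gene held nearly all of it. Gapdh and Pkm2 made up 100% of their steps in all 4 libraries, with the sperm isoenzyme Gapdhs and the liver and red-cell pyruvate kinase Pklr listed at 0. Pgam1 held at least 99.1%, Pgk1 at least 94.5%, Eno1 94.0% to 96.4%, Aldoa 93.0% to 97.5% and Slc16a1 91.0% to 100%. The enolase step was summed over Eno1, Eno2 and Eno3, without the near-identical Eno1b, whose 63.1 to 109 TPM would lower the share of Eno1. Eno3, the muscle enolase, held nearly all the rest of its step, at 3.58% to 6.03%. The remaining 0.943% of phosphoglycerate mutase at most was Pgam2, the muscle form.

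Other steps were shared between genes. Hexokinase was split between Hk2, at 68.6% and 71.7% in the negative and 56.2% and 43.6% in the positive libraries, and Hk1, at 24.5% and 28.3% against 37% and 53.2%. Phosphofructokinase was led by Pfkm in the negative libraries, at 56.4% and 60.1%, and also in positive library 1, at 39.9%. In positive library 2 Pfkl led with 59.1%. Among PDH kinases Pdk3 led in every library, at 75.1% and 66.6% in the negative and 53.1% and 53.4% in the positive libraries, while Pdk1 held 24.4% and 29.5% against 41.1% and 46.6%. For Hk1, Pfkl and Pdk1 both positive shares lay above both negative ones, and for Hk2, Pfkm and Pdk3 below.

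Ldhb held 48.3% and 64.3% of lactate dehydrogenase in the negative and 64.5% and 56.1% in the positive libraries, and Ldha 48.8% and 30.2% against 29.6% and 34.4%, with overlap in both. Ldhc, the testis and sperm subunit, held 2.81% to 9.48%. At 2 further steps another gene stood beside the member. Pdha2, the intronless testis form of the PDH E1 alpha subunit, held 37.4% to 66.8% of that step and Pdha1 the rest. Tktl1, a transketolase-like gene, held 65.4%, 64% and 62.1% of its step in the first 3 libraries, and Tkt overtook it in positive library 2 with 53% against 32.1%. The transcripts of Pdha1 and Pdha2 are 76.0% identical over 1181 aligned bases and those of Tkt and Tktl1 66.9% over 1393 bases.

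Slc2a1 led glucose transport with 58.5% and 71.2% in the negative and 57.4% and 40.6% in the positive libraries. In positive library 2 alone Slc2a4, the insulin-responsive transporter GLUT4, held 39.6%, against at most 2.73% elsewhere. G6pdx held 55.4% to 86.4% of glucose-6-phosphate dehydrogenase and H6pd, its counterpart in the endoplasmic reticulum, the rest. The PFKFB genes summed to 8.01, 5.18 and 5.00 TPM and were at 0 in positive library 2, so no share exists there. In negative library 1 and positive library 1 Pfkfb1, the liver form, held the largest part, at 82.9% and 62.4%.

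The shares were compared by exact two-sided permutation, whose smallest possible p with 2 libraries a group is 0.333. It was run on 37 shares, 0 of which had an unadjusted p under 0.05, and the lowest p was 0.333. Both positive shares were above both negative ones for 5 genes and below for 5. If the group had no bearing, a share would be apart in either direction with a chance of 0.333. The 5 and 5 genes among the 37 shares are no more than that. Shares within a step also depend on each other, since a gain by a gene is a loss to the others. The differences of Hk1 and Hk2, of Pfkl and Pfkm, and of Pdk1 and Pdk3 are therefore not separate findings. The difference in mean share was 18.7 percentage points for Hk1, 25.3 for Pfkl and 16.9 for Pdk1, and none of them can be told from the spread between libraries by this test.

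**Figure D3:**
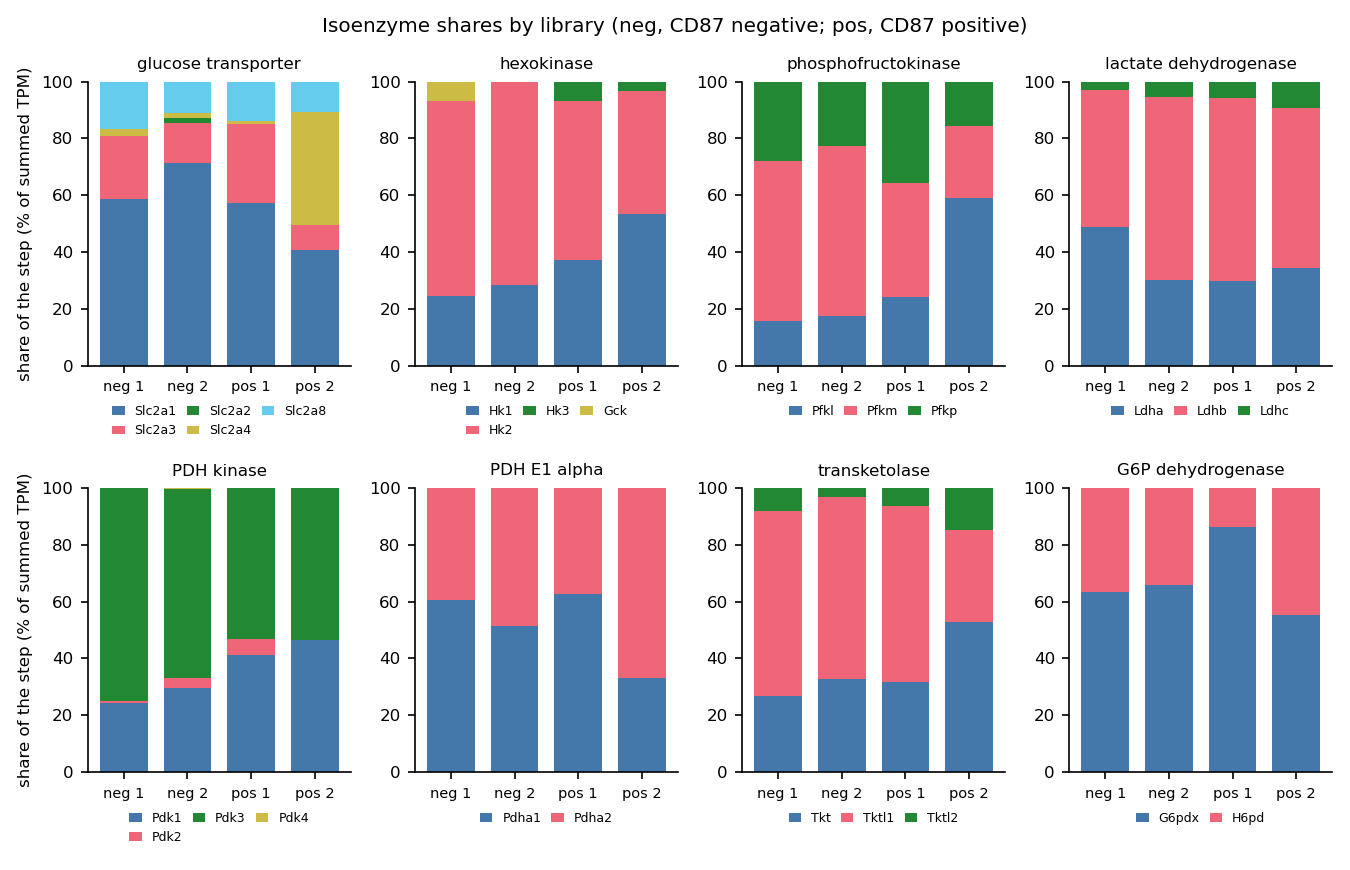
Share of each isoenzyme gene in the summed TPM of its step, as stacked bars from 0 to 100% for each of the 4 CD87 libraries, at 8 steps with more than 1 expressed gene. Pdk3 is the largest PDH kinase in every bar, and the phosphofructokinase and transketolase steps are led by Pfkl and Tkt only in CD87 positive library 2.

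The 71 single cells, all KIT negative, were sorted by the authors into clusters I to IV with 9, 32, 24 and 6 cells. They count as 1 sample, and the clusters were drawn from the same cells' genes, so the values below are a description without a test. Levels are in CPM, each gene's part of a cell's total counts scaled to a common sum, which are not scaled by length and are compared only within a gene. The 32 genes together took a median of 0.426% of a cell's counts, with a range from 0.231% to 0.670%. The cluster medians were 0.419%, 0.408%, 0.438% and 0.418% from I to IV and lay within the spread between cells. A cell held between 18 and 29 of the 32 genes with 1 or more expected counts, with a median of 24.

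The 7 genes that led in the bulk libraries were among 12 found in every cell. So were Pdhb and Pgd, the next in bulk with means of 90.9 and 67.5 TPM. The match was not complete, since Pfkfb2, also in every cell, had a mean of only 1.06 TPM in bulk. Gpi1, Aldoa, Gapdh, Pgam1, Eno1, Pkm2, Pdk1, Pdhb, Slc16a1, Pfkfb2, Pgd and Taldo1 were detected in all 71. Tpi1 was found in 45 cells (63.4%, exact 95% interval 51.1% to 74.5%) and Pgk1 in 34 (47.9%, 35.9% to 60.1%), both of them enzymes of the main glycolytic route. Hk2 was found in 63 cells and Hk1 in 24 (33.8%, 23% to 46%), Tkt in 25 (35.2%, 24.2% to 47.5%) and Slc16a3 in 4 (5.63%, 1.56% to 13.8%). These intervals cover counting error only, and a gene without a count in a cell was not detectable at that cell's depth. For Tpi1 and Pgk1, how reads shared with copies that have no row were treated is not known either. When every cell was thinned to 182150 counts, Tpi1 was found in 35 cells, Pgk1 in 29, Hk2 in 53, Hk1 in 23 and Tkt in 21.

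**Figure D4:**
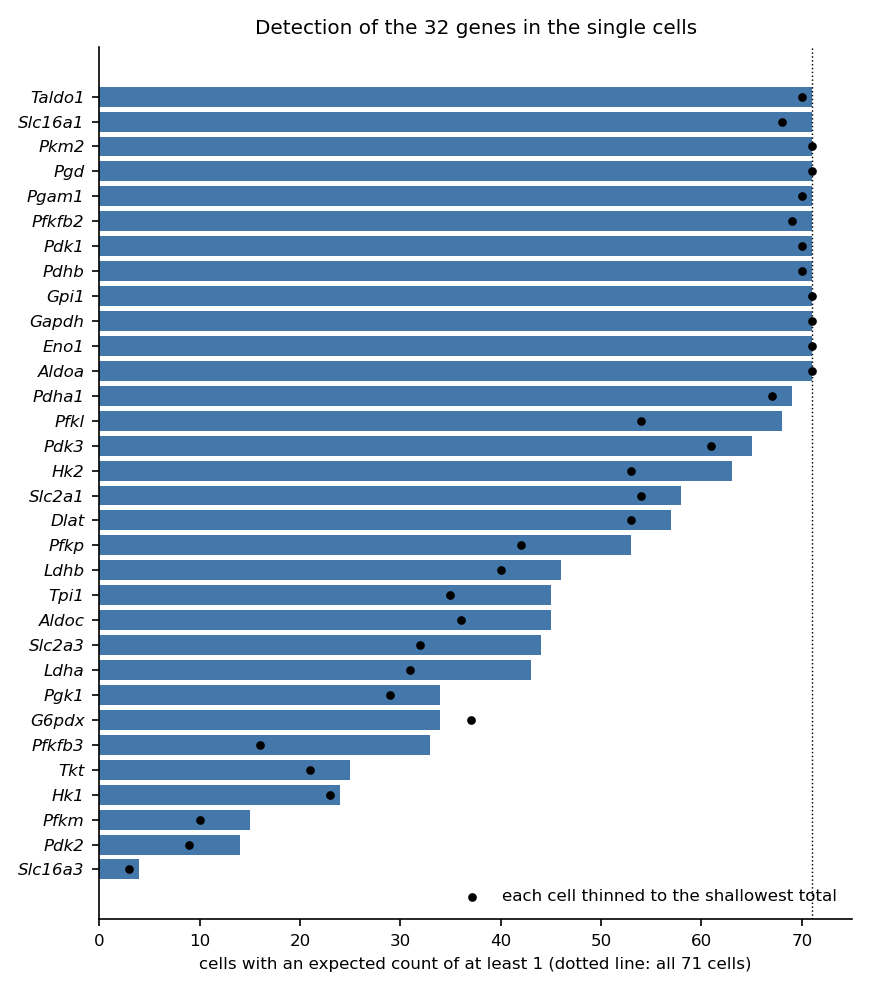
Number of the 71 single cells holding 1 or more expected counts for each of the 32 genes (bars), and the same after thinning each cell to the total of the shallowest one (black points). There are 12 genes at the dotted line of 71 cells, and Slc16a3 is lowest with 4. Expected counts were rounded before thinning, which puts G6pdx at 37 cells against 34.

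Joint detection of isoenzymes of a step was counted per cell. Whether these counts exceed what each gene's own detection would give was not tested. Hk1 and Hk2 were both detected in 23 cells, Hk2 alone in 40 and Hk1 alone in 1. Pdk1 and Pdk3 were together in 65 cells and Pdk1 alone in the other 6. Lactate dehydrogenase was patchier, with Ldha and Ldhb together in 29 cells, Ldha alone in 14, Ldhb alone in 17 and neither in 11. Pdha1 came with Pdha2 in 40 cells and alone in 29. Tktl1 was found without Tkt in 42 cells and Tkt without Tktl1 in 2. Tktl1 also had the higher TPM share in 3 of the 4 bulk libraries. Detection in cells is not a level, so it gives no order of abundance to set against these shares. Pdk3 held most of the PDH kinase TPM in all 4 bulk libraries. No cell had Pdk3 without Pdk1, which follows from Pdk1 being found in all 71. After thinning, 1 cell had Pdk3 without Pdk1. Pfkm, with the highest phosphofructokinase share in 3 of the 4 bulk libraries, was found in 15 cells and Pfkl in 68. After thinning these were 10 and 54 cells, and the same limit holds for setting them against the shares. After thinning, Ldha and Ldhb were together in 19 cells and neither was found in 19. Some isoenzymes with little of a step's TPM in most bulk libraries were found in many cells. Slc2a4 was found in 57 cells, and in 42 after thinning. Eno2 was found in 70 cells and Eno3 in 20, and after thinning in 53 and 14.

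Between clusters, a gene found in at least 50% of cells was called where the difference in mean log2(CPM + 1) from all other cells was at least 1, that is 2-fold. This left 10099 genes and 24 members. In cluster I 1 member was called higher, where 2.86% of all genes were, and 7 lower, where 18% of all genes were. The higher one was Pdk1, with medians of 301, 87.3, 101 and 144 CPM from cluster I to IV, and the lower ones were Aldoc, Dlat, Hk2, Ldha, Pdk3, Slc2a1 and Tpi1. Pdk3 had medians of 7, 38.2, 102 and 77.6 CPM. Its difference was -2.15 in cluster I, where that of Pdk1 was 1.20. In clusters II and IV both kinases lay on the same side of the other cells, with differences of -0.47 for Pdk1 and -0.57 for Pdk3 in II and of 0.96 and 0.60 in IV. In cluster III Pdk1 differed by -0.41 and Pdk3 by 1.48, where Pdk3 was the only member called higher (2.79% of all genes were) and was found in 24 of 24 cells. Single cells of all clusters overlapped for both kinases, with Pdk1 from 24.2 to 627 CPM in cluster I and from 5.26 to 672 CPM in cluster II.

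Cluster II had 3 members called higher, Aldoc, Hk2 and Slc2a3, where 8.67% of all genes were, and 0 lower, where 0.485% were. Hk2 had medians of 2.65, 27.9, 25 and 1.07 CPM from I to IV, and it was found in 6 of 9, 32 of 32, 22 of 24 and 3 of 6 cells. In cluster III Slc2a3 alone was called lower, where 3.10% of all genes were, with medians of 4.76, 9.16, 1.03 and 0.420 CPM. In cluster IV, which has only 6 cells, Eno1 was called higher (5.89% of all genes), with medians of 251, 275, 374 and 591 CPM and a range of 387 to 1734 CPM in that cluster. Hk2, Ldha, Pfkp and Slc2a3 were called lower there, where 24% of all genes were. The members called lower were 7 of 24 in cluster I, a greater share than over all genes, and 4 of 24 in cluster IV, a smaller share. The greater share in cluster I depended on the setting. After thinning, 5 of 22 members and 1792 of 7932 genes were lower there, nearly the same share. With a pseudocount of 10 CPM, 1 of 24 members and 530 of 10099 genes were, a smaller share.

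Of the 12 genes found in every cell only Pdk1 and Eno1 were called. Gapdh had medians of 595, 469, 560 and 621 CPM, Pkm2 of 934, 783, 874 and 445 CPM, Gpi1 of 521, 535, 603 and 267 CPM and Aldoa of 503, 422, 399 and 272 CPM from cluster I to IV. None of these 4 was called. In the cells the copies of Gapdh summed to a median of 359 CPM and those of Eno1 to 182 CPM. Which locus the counts of Gapdh and Eno1 come from is thus uncertain in the cells too. Ldha had medians of 0.928, 6.76, 13.2 and 0 CPM and Ldhb of 21.3, 4.62, 8.76 and 3.08 CPM, so the order of clusters differed between the subunits, within wide overlap of cells. Median totals per cell were 1444836, 1601407, 1681169 and 1121541 counts in the 4 clusters. After thinning, the calls included those of Pdk1 in cluster I, Hk2 in I, II and IV, Pdk3 in I and III and Eno1 in IV. Pdk1 was then called higher in IV too, and G6pdx lower in I and IV. The calls of Slc2a1 in I and Aldoc in II were lost. Ldha, Slc2a3 and Tpi1, then found in 31, 32 and 35 cells, were no longer compared.

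**Figure D5:**
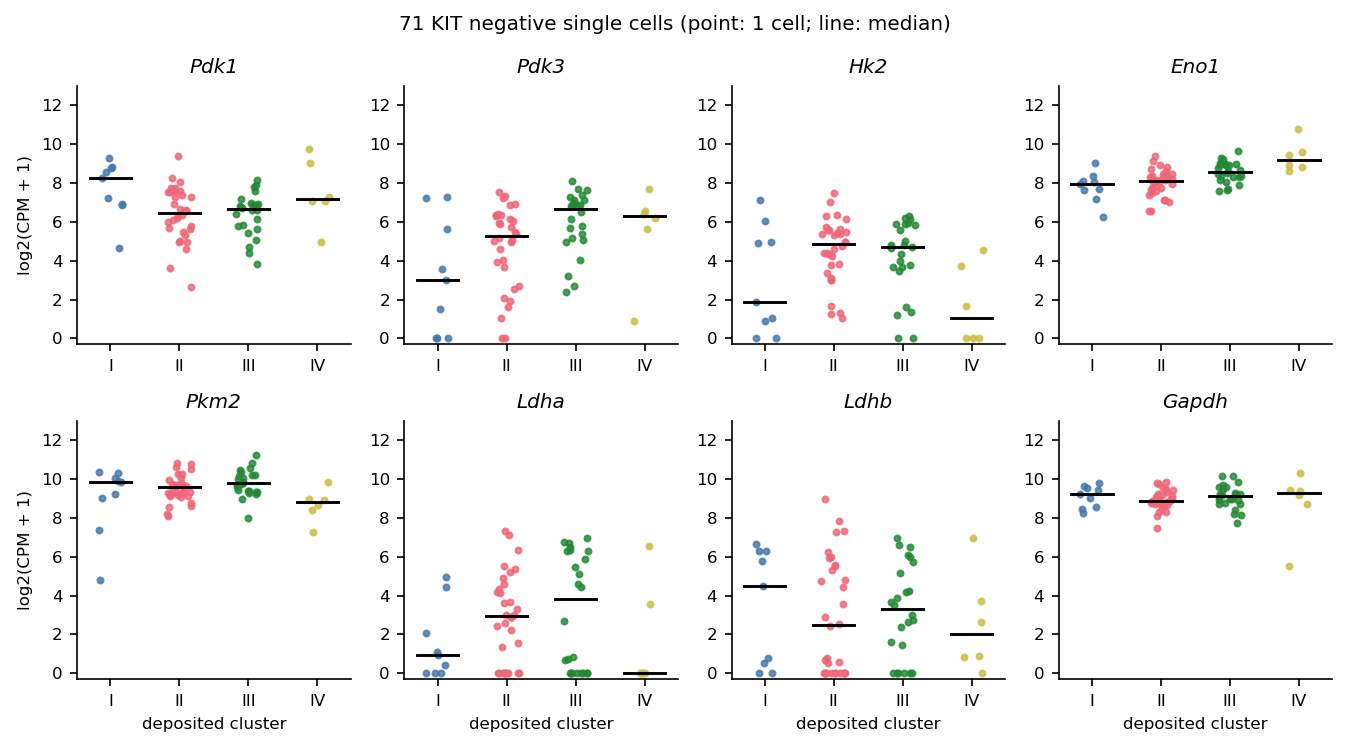
Level of 8 members in the 71 single cells as log2(CPM + 1), grouped by deposited cluster (I to IV, 9, 32, 24 and 6 cells), each point being 1 cell and each line a median. Pdk1 is highest in cluster I and Pdk3 lowest there, Hk2 is low in clusters I and IV, and Gapdh is level across clusters.

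Across cells, correlations among the members were weak. Over 276 pairs of the 24 members, Spearman's rho had a median of 0.01, against 0.02 over all pairs of the 10099 genes, and ran from -0.32 (Aldoa and Pdk1) to 0.38 (Pfkfb2 and Pgd, Gapdh and Taldo1). All points share the 71 libraries and their depth, and rho between a member and the total of a cell ran from -0.28 to 0.29.

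Promoter sequence of the members was read from RefSeq windows of assembly GRCm38.p6, 250 bases before to 50 bases after each start. The motif searched was ACGTG on both strands, the core to which hypoxia-inducible factors and, within the palindrome CACGTG, E-box factors are known to bind. Windows were found for 31 members, 48 in all, and 23 of them (47.9%) held ACGTG, against 19.6% of all 32851 windows. The palindrome was in 6 of the 48 (12.5%), against 7.15% of all windows. The first listed windows of Ldha and Ldhb and of the PDH kinase genes Pdk1 and Pdk3 are shown side by side, 5′ to 3′, with every match in capitals.
Ldha, chr7:46845554-46845853, plus strand: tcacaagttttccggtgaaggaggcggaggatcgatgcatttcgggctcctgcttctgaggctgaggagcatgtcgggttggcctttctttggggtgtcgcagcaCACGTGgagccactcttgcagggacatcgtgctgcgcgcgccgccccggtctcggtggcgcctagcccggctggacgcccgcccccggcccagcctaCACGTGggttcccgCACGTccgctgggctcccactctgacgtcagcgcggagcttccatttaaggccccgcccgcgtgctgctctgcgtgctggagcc
Ldhb, chr6:142507908-142508207, minus strand: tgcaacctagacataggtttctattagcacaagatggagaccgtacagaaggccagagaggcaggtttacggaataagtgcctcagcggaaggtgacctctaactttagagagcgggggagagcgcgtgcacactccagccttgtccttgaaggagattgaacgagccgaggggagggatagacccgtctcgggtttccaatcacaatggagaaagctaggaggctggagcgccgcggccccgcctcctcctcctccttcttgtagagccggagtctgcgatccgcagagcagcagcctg
Pdk1, chr2:71872974-71873273, plus strand: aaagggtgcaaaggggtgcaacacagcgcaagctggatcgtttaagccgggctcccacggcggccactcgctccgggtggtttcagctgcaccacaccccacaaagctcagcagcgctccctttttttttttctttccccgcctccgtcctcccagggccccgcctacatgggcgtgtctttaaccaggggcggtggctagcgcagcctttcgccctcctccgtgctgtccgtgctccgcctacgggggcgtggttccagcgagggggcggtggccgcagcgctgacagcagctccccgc
Pdk3, chrX:93832101-93832400, minus strand: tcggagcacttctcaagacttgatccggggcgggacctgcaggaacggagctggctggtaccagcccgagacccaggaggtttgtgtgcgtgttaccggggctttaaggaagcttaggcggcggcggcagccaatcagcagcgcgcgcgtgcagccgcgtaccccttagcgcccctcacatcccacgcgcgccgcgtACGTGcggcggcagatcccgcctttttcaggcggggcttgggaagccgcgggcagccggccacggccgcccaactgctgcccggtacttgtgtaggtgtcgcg
The Ldha window held CACGTG at 2 places and a further match, the Pdk3 window held 1 match, and the windows of Ldhb and Pdk1 held none. For Pdk2, a PDH kinase gene not shown, the first listed window (chr11:95041322-95041621, minus strand) held CACGTG at 1 place. A match is a description of these letters and no match speaks only of this window.

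The rest of the pathway list, isoenzymes and regulators, gave no calls either. Of the 42 genes, 26 passed the filter and 0 were called by limma, 0 at an unadjusted p under 0.05, with 11 higher, 15 lower and a median log2 difference of -0.16. Both positive libraries lay above both negative ones for 2, against 20.4% of all genes, and below for 6, against 14.5%. The most abundant of them was Bsg, the chaperone that carries SLC16A transporters to the membrane, at 349 and 297 TPM in the negative and 234 and 210 TPM in the positive libraries. Mpc2, a subunit of the mitochondrial pyruvate carrier, read 130 and 186 TPM against 153 and 221 TPM, and its partner Mpc1 20.4 and 9.67 TPM against 13.4 and 41.5 TPM. Of the regulators, Hif1a, the oxygen-regulated alpha subunit of hypoxia-inducible factor, was between 19.3 and 28.4 TPM. Epas1, its close relative, read 3.50 and 3.47 TPM against 8.43 and 9.13 TPM. Arnt, the partner of both, read 9.59 and 10.9 TPM against 7.21 and 0.87 TPM. The groups were apart for Bsg, Epas1 and Arnt, with unadjusted limma p of 0.0549, 0.0528 and 0.0656.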

How the data were processed

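The authors deposited TPM values per gene for the bulk libraries. According to the submitters' processing notes, reads were trimmed with Trim Galore and quantified with RSEM against mm9. The expected counts per gene deposited for the single cells came, per the same notes, from Trim Galore followed by Salmon, also on mm9. Tool versions and the annotation remain not given in the sources used here. Column headers of the cells name day P6 where titles give postnatal day 5.5. From the cell data, 22 rows whose names had become dates, with at most 0.609% of a cell's counts, were left out, and CPM were computed from the remaining totals. Clusters are the deposited ones.

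CD87 groups were compared with limma 3.58.1 (R 4.3.3, trend, two-sided) on log2(TPM + 1) over genes that reached 1 TPM in 2 or more libraries, which understates changes of low genes. The script was tested on simulated data. Isoenzyme shares were tested by exact permutation. Cells were also thinned to 182150 counts after rounding. Copies were aligned with blastn 2.17.0. Alternatives covered the pseudocount, filter, scaling, trend, replicate block and leaving out each library. All 32 members are named. Members and lists were chosen with earlier results of these data known.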

Additional observations from a re-analysis of the deposited data

How the results depend on the processing

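The count of members called stayed at 0 under every alternative except without CD87 positive library 1, and ran from 0 to 7 when 1 library at a time was left out. The count over all genes was 3, and became 1 with a pseudocount of 0.1, without the filter or after rescaling without the largest row, 0 without the variance trend, and 10 to 2988 when 1 library was left out. Members higher at an unadjusted p under 0.05 went from 3 to 1 with median-of-ratios scaling, 0 without the trend and 0 to 8 without a library. The members' median log2 difference ran from 0.09 to 0.46 without a library. Rescaling moved the median of all genes to -0.11, relative to which the members' median was 0.20.

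With the replicate number as a block (replicate block), 130 genes and 0 members were called, and 6 members were higher at an unadjusted p under 0.05. Libraries with the same number deviated with a correlation of only 0.068 over genes, so they share a number and are not treated as pairs.

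Signs turned for Eno1 (-0.04 rescaled, -0.03 with median-of-ratios scaling), Pdk2 (-0.58 with a pseudocount of 0.1, -0.02 rescaled) and Taldo1 (-0.03 and -0.02). Of the 31 members, 15 kept their sign without each library in turn. Pfkfb2 did not pass the filter without a CD87 negative library, and kept its sign in the other fits, at -1.37 and -0.44. The rest ranged, in log2, Aldoc from -0.48 to 1.07, Eno1 -0.23 to 0.37, G6pdx -1.11 to 0.30, Gapdh -0.16 to 0.57, Gpi1 -0.04 to 0.28, Hk2 -0.19 to 0.45, Pdhb -0.08 to 0.50, Pdk2 -0.52 to 1.21, Pgam1 -0.11 to 0.52, Pgd -0.64 to 0.01, Slc16a3 -1.26 to 0.31, Slc2a1 -0.90 to 0.04, Slc2a3 -1.05 to 0.76, Taldo1 -0.13 to 0.30 and Tpi1 -0.23 to 1.24. Those called without CD87 positive library 1 ranged from 0.33 to 1.19 for Ldha, 0.42 to 1.82 for Ldhb, 0.67 to 1.07 for Pdk1, 0.71 to 2.59 for Pfkl, 0.17 to 1.13 for Pgk1 and 0.13 to 1.63 for Tkt.

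With 2 libraries a group the p of an isoenzyme share cannot fall under 0.333, so leaving out a library gives values and no test. Differences in share that turned ranged, in percentage points, from -1.66 to 2.55 for Aldoa, -2.55 to 1.66 for Aldoc, -1.32 to 1.12 for Eno1, -9.29 to 21.7 for G6pdx, -16.8 to 1.82 for Ldha, -3.99 to 12.0 for Ldhb, -22.9 to 6.45 for Pdha1, -2.04 to 3.81 for Pdk2, -9.73 to 10.4 for Pfkp, -0.641 to 0.301 for Pgam1, -2.95 to 6.06 for Slc16a1, -6.06 to 2.95 for Slc16a3 and -9.28 to 9.44 for Slc2a3.

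In the cells, members 2-fold apart in cluster I went from 8 to 2 with a pseudocount of 10 CPM. In cluster II 3 became 1 after thinning, 5 with medians and 0 with that pseudocount. In cluster III 2 became 1 after thinning and 0 with that pseudocount, and in cluster IV 5 became 8 with medians and 2 with that pseudocount. The cause of these changes was not tested.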
